A study of Gallus gallus with 8 samples.

Results

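The miR-221 and miR-222 microRNAs were followed in chick ectoderm dissected from the frontonasal ectodermal zone (FEZ), which acts as a signalling centre for the growing face. Every row of the deposited table named miR-221 or miR-222, with any letter or arm, was taken. This gave 5 of the 994 features: gga-miR-221-5p, gga-miR-221-3p, gga-miR-222a, gga-miR-222b-5p and gga-miR-222b-3p, written below without the species prefix. Of these, 4 reached a normalized count of 1 in 4 or more libraries and entered the fit across 356 features, and miR-222b-3p did not. The rows were picked by name, but this pair of miRNAs was singled out with stage differences of the same libraries known. Their stage differences are therefore given as a description, without a p-value.

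Small RNA was sequenced at Hamburger-Hamilton stage 22 (HH22, 72 h of incubation) and stage 18 (HH18, 48 h), in untreated Rhode Island Red embryos. There were 4 libraries of each stage, and each came from 2 pooled chicks. Per the series' design, HH22 follows and HH18 precedes the onset of Sonic hedgehog (SHH) expression in this tissue, and the question was which miRNAs change around it. Summed over the 994 features of the deposited table, the HH22 libraries held 46912793 to 88471588 reads and the HH18 libraries 6276121 to 31318393. These totals are called depth, and reads outside the features are not part of them. Depth and stage cannot be told apart. Values are size-factor-normalized counts, recovered from the deposited log2 values, and 1 read was worth 0.3355 to 0.6524 normalized counts at HH22 and 0.7992 to 4.1814 at HH18. Fewer cells of a type and less RNA per cell cannot be told apart in such bulk samples.

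A miRNA hairpin is cut into a 5p and a 3p strand, and usually the strand that is loaded into an Argonaute protein accumulates. In mammals miR-221 and miR-222 lie in a shared cluster, have the same 3p seed, and repress KIT, a receptor tyrosine kinase, and CDKN1B (p27), a cell-cycle inhibitor. They are well known from endothelial and blood cells. In the chicken annotation GRCg7b the genes MIR222 and MIR221 neighbour each other with 0 genes between them, and both lie within the span of the protein-coding gene LOC107055472. MIR222B lies on another chromosome, between F8 and FUNDC2. The name mir-222a is a synonym of MIR222 alone, but gga-mir-222b is listed as a synonym of both MIR222 and MIR222B, so the locus of the miR-222b rows is uncertain. That annotation was used for names and neighbours only.

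miR-221-5p was the most abundant of the 5 features at both stages. The HH22 libraries held 60539, 51202, 50453 and 58836 normalized counts (replicates 1 to 4), and the HH18 libraries 64715, 52322, 57329 and 72779 (replicates 5 to 8). The stages overlapped, and the highest value belonged to an HH18 library. The means were 55257 ± 5171 at HH22 and 61786 ± 8923 at HH18 (SD, n = 4 each). The difference, HH22 minus HH18, was -0.15 on the log2(normalized count + 1) scale (SE 0.13), about the size of its standard error. In the order of mean levels the feature stood at position 15 of the tested features, between miR-200b-3p (62188) and miR-21-5p (47018).

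miR-221-3p, the less abundant strand, was higher at HH22 with the size factors of the deposited values. It measured 19643, 19296, 18981 and 17375 normalized counts in HH22 replicates 1 to 4, and 11116, 11093, 15208 and 13004 in HH18 replicates 5 to 8. All 4 HH22 libraries lay above all 4 HH18 libraries, and the nearest HH18 library was replicate 7, the deepest of that stage. The means were 18824 ± 1003 at HH22 and 12605 ± 1952 at HH18 (SD, n = 4 each), a ratio of 1.49 and a log2 difference of 0.59 (SE 0.13). Scaled by all reads the log2 difference was 0.51 (SE 0.17), and without the 5 most abundant features 0.12 (SE 0.10), and neither passed the threshold of the fit. By mean level it stood at position 29, between miR-103-3p (16443) and miR-9-5p (14347).

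miR-222a, which carries no arm suffix in the table, did not separate the stages. It had 17262, 12483, 12148 and 13134 normalized counts in HH22 replicates 1 to 4, and 16329, 10324, 12723 and 12018 in HH18 replicates 5 to 8. The highest library was replicate 1 at HH22 and replicate 5 at HH18. The means were 13757 ± 2372 at HH22 and 12848 ± 2529 at HH18 (SD, n = 4 each), with a log2 difference of 0.10 (SE 0.16). By mean level it came at position 31, between miR-9-5p (14347) and miR-181a-3p (11255).

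miR-222b-5p was scarcer than miR-222a in every library. It measured 1117, 1291, 1224 and 1364 normalized counts in HH22 replicates 1 to 4, against 671.8, 840.5, 1362 and 754.8 in HH18 replicates 5 to 8. HH18 replicate 7 fell inside the HH22 range, and the other 3 HH18 libraries lay below it. The means were 1249 ± 104.7 at HH22 and 907.2 ± 310.8 at HH18 (SD, n = 4 each), with a log2 difference of 0.51 (SE 0.24). Without HH18 replicate 7 the difference was 0.73 (SE 0.20) and lay past the threshold of the fit, which it did not reach with all 8 libraries. Replicate 7 was the HH18 library nearest to the HH22 libraries, so leaving it out widens the difference by construction. It was also the deepest of its stage, and nothing is read from this call. Leaving out any other single library gave 0.39 to 0.56, without a pass. Scaled without the 5 most abundant features, the difference was 0.05 (SE 0.23). By mean level miR-222b-5p came at position 78, between miR-17-5p (1160) and miR-20b-5p (1017).

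miR-222b-3p was detected in 1 of the 8 libraries. HH22 replicate 2 held 20 reads, or 12.6 normalized counts, and the other 3 HH22 libraries and all 4 HH18 libraries had 0 reads. A count of 0 allows up to 3 reads, which corresponds to 1.01 to 1.96 normalized counts in the HH22 libraries and to 2.40 to 12.54 in the HH18 libraries. Intervals and floors cover counting error only. Over the 8 libraries the miR-222b-5p row held 12419 reads and the miR-222b-3p row 20. Reads of near-identical sequences can be assigned to another row, so these sums are those of the rows and not of the strands of a hairpin. Whether another row, such as miR-222a, is that close in sequence was not checked.

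**Figure D1:**
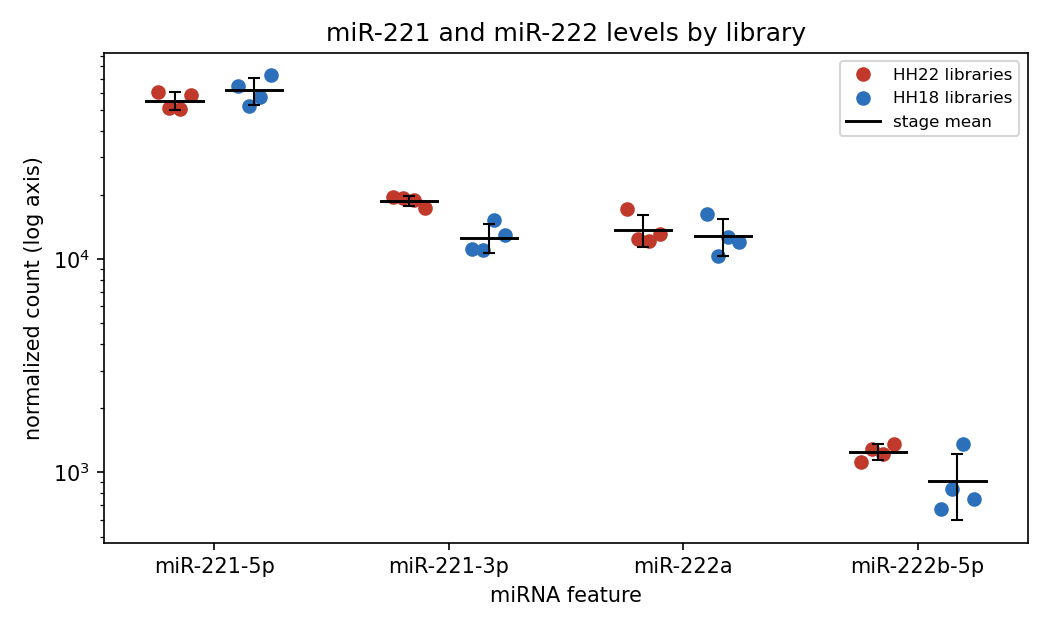
Normalized counts (log axis) of miR-221-5p, miR-221-3p, miR-222a and miR-222b-5p in 4 HH22 libraries (red, left) and 4 HH18 libraries (blue, right), with the stage mean and SD in black; miR-222b-3p, at 0 in 7 of 8 libraries, is not drawn. The stages are apart for miR-221-3p (17375 to 19643 at HH22, 11093 to 15208 at HH18) and overlap for the other 3.

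The order of levels was compared within libraries. At both stages, miR-221-5p came first and miR-222b-5p stood below miR-222a. At HH22 miR-221-3p lay above miR-222a within every library, with ratios of 1.14, 1.55, 1.56 and 1.32 in replicates 1 to 4. At HH18 the ratios were 0.681, 1.07, 1.20 and 1.08 in replicates 5 to 8, and the values of the 2 features overlapped across libraries. The mean ratio was 1.39 ± 0.202 at HH22 and 1.01 ± 0.225 at HH18 (SD, n = 4 each), and the ranges of the stages overlapped. Levels of different features are not divided by length here, and ligation during library preparation is known to favour some small RNA sequences, which was not measured.

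RPM gives the share of the reads of all features in the table (reads scaled to a common library total). miR-221-5p made up 1850 ± 131 RPM at HH22 and 2170 ± 125 at HH18 (SD, n = 4 each). The share of miR-221-3p was 634 ± 69.1 RPM at HH22 and 450 ± 107 at HH18, where replicate 7 reached 607.6 and so passed HH22 replicate 4 at 531.7. On this scale the stages overlapped for miR-221-3p. miR-222a had 462 ± 81.4 and miR-222b-5p 41.9 ± 3.01 RPM at HH22, against 455 ± 91.7 and 33.0 ± 14.9 at HH18 (SD, n = 4 each). In rank among all features of a library, miR-221-3p stood at 27 to 28 at HH22 and at 30 to 32 at HH18. The rank of miR-221-5p was 14 to 17 at HH22 and 11 to 14 at HH18.

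The 3p strand held a larger part of the miR-221 reads at HH22. This ratio is taken within a library and so does not depend on how libraries were scaled. The 3p strand held 24.5%, 27.4%, 27.3% and 22.8% of the reads of both strands in HH22 replicates 1 to 4. It held 14.7%, 17.5%, 21.0% and 15.2% in HH18 replicates 5 to 8. Each HH22 library lay above each HH18 library, although HH22 replicate 4 and HH18 replicate 7 were close, with 95% Wilson intervals of 22.6% to 23.0% and 20.7% to 21.2%.

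The mean 3p share was 25.5% ± 2.25 at HH22 and 17.1% ± 2.88 at HH18 (SD, n = 4 each), a difference of 8.43 percentage points. miR-221-5p thus exceeded miR-221-3p by 2.94 ± 0.356 times at HH22 and by 4.98 ± 0.935 times at HH18. On the log2 scale the ratio of 3p to 5p differed by 0.74 between the stages (SE 0.17). After every library was thinned to the depth of the shallowest, the 3p share ran from 23.1% to 27.6% at HH22 and from 14.7% to 20.5% at HH18. Within HH18, replicates 6, 5, 8 and 7, from shallowest to deepest, stood at 17.5%, 14.7%, 15.2% and 21.0%. The deepest of them thus lay nearest to the HH22 libraries. Thinning evens out read numbers only. It keeps reads of both strands at the same rate, so the expected share is unchanged by construction. Depth and stage still cannot be told apart.

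**Figure D2:**
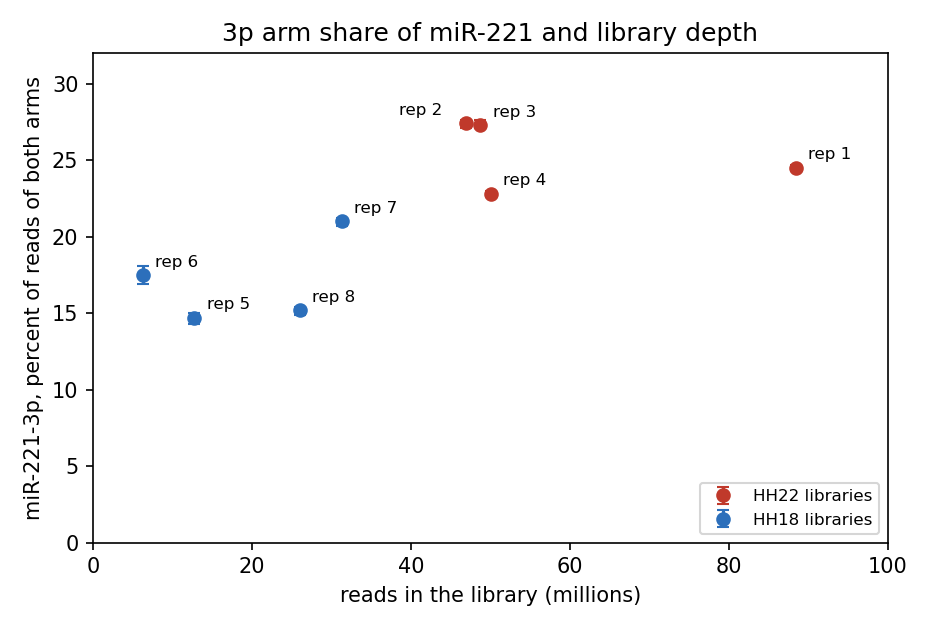
Share of miR-221-3p among the reads of both miR-221 strands (percent, with 95% Wilson intervals) against the depth of the library (mega reads), for 4 HH22 libraries (red) and 4 HH18 libraries (blue). The HH22 libraries stand at 22.8% to 27.4% and are all deeper than the HH18 libraries, which stand at 14.7% to 21.0%.

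Other hairpins also differed in strand balance between the stages. Among 74 hairpins with both strands tested, the 3p share did not overlap between stages in 9, which is 12.2% of them, and in 7 of the 9 (9.46% of all 74) it was higher at HH22. Of 12 hairpins whose strands both averaged at least 1000 normalized counts, 5 (41.7%) showed no overlap, miR-221 among them. In that set the log2 ratio of 3p to 5p had a larger HH22 minus HH18 difference in 2 hairpins, miR-1677 (1.35, SE 0.20) and miR-200b (1.31, SE 0.35). It was lower without overlap in miR-30a (-0.85, SE 0.22). The median difference of the 12 was 0.27, against 0.74 for miR-221. Among all 74 hairpins the difference was larger than that of miR-221 in 22, and the median was 0.24. Some of the 22, unlike miR-1677 and miR-200b, rest on a scarce strand and have a large error. Examples are miR-1648 (3.59, SE 1.45, mean 3p count 5.8) and miR-31 (2.99, SE 1.58, mean 3p count 11.0). Of the same 12 hairpins, 5 had the 5p strand as the more abundant, as miR-221 did.

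**Figure D3:**
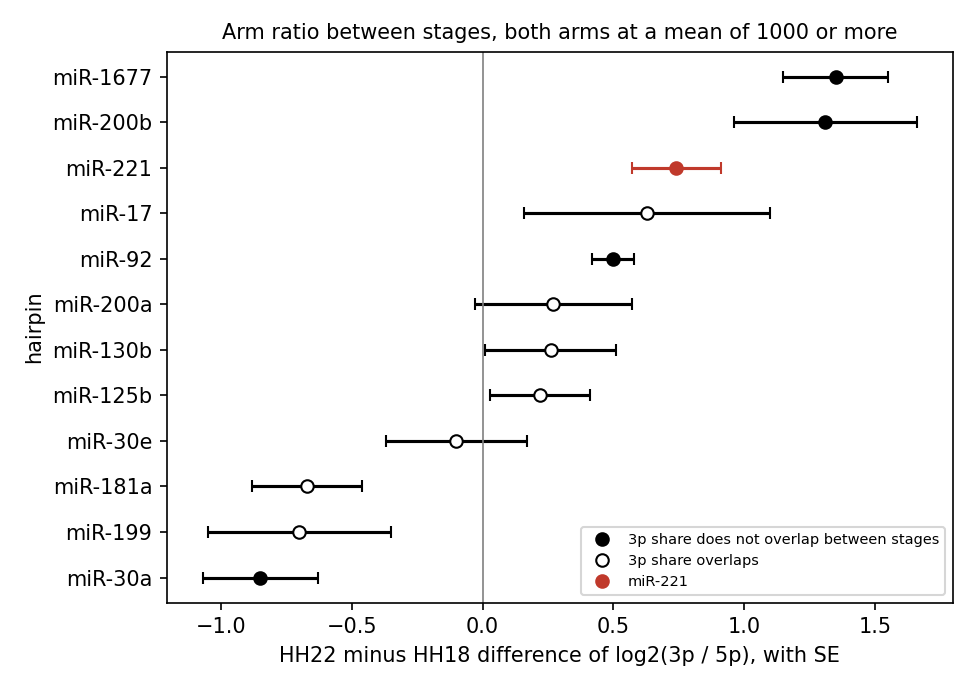
HH22 minus HH18 difference of the log2 ratio of 3p to 5p normalized counts, with its SE, for the 12 hairpins whose strands both averaged at least 1000; filled points are hairpins whose 3p share did not overlap between stages, and miR-221 is red. miR-221, at 0.74, stands behind miR-1677 at 1.35 and miR-200b at 1.31, and miR-30a is lowest at -0.85.

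In the fit across all features 1 of the 4 tested members passed the threshold, miR-221-3p, as higher at HH22, and 0 were lower (limma-trend, Benjamini-Hochberg adjusted p under 0.05). Of all 356 tested features 14.6% passed, 9.83% as higher and 4.78% as lower. Likewise 1 of the 4 members had no overlap between stages, against 20.2% of all tested features. Since the stage contrast was known when these miRNAs were chosen, nothing is read from these counts. The median log2 difference was 0.31 over the 4 members, 0.38 over all tested features and 0.13 over the 79 with a mean of at least 1000.

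The size, direction or call of single members depended on how the libraries were scaled. The 5 most abundant features of the table held 90.7% to 92.8% of the reads of an HH22 library and 91.9% to 94.3% of an HH18 library. For miR-221-5p the log2 difference was -0.23 (SE 0.11) when scaled by all reads, and it did not pass. Scaled by the reads left without the 5 most abundant features, miR-221-5p had -0.62 (SE 0.13) and passed as lower at HH22. This scaling put the median of all tested features at -0.05, against 0.31 when scaled by all reads and 0.38 with the size factors. The value with the size factors depended on scarce features. It was 0.15 with a pseudocount of 10, and 0.13 over the 79 features with a mean of at least 1000. miR-222a had 0.03 (SE 0.18) when scaled by all reads and turned to -0.36 (SE 0.17) without the 5 features. Both strands of a library are divided by the same factor, so the difference between the strands of miR-221 was 0.74 under each scaling by construction. Leaving out any single library gave 0.66 to 0.87.

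**Figure D4:**
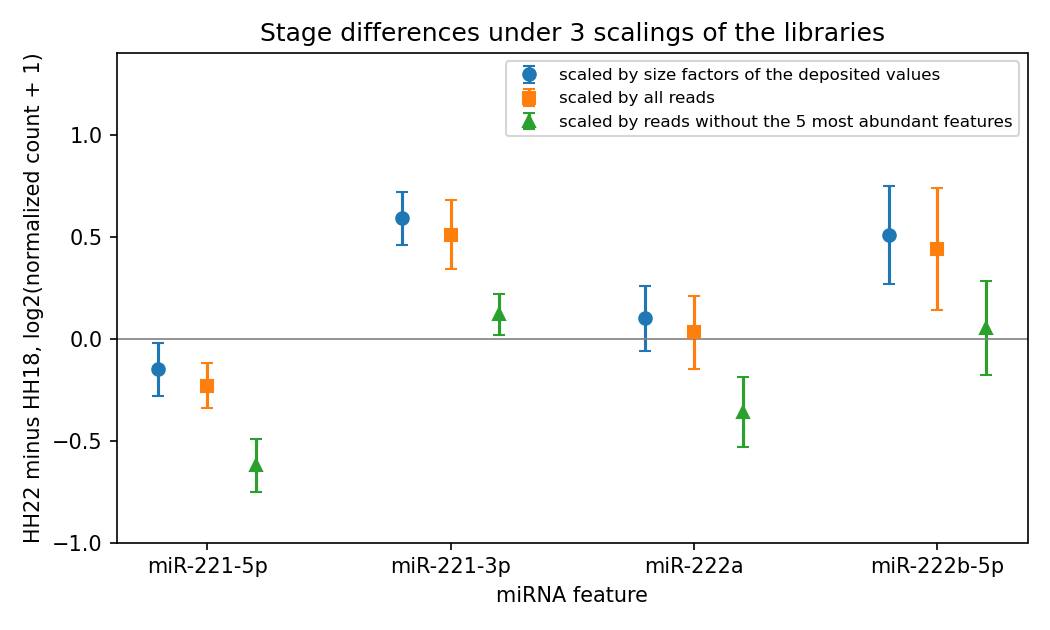
HH22 minus HH18 difference on the log2(normalized count + 1) scale, with its SE, for 4 features under 3 scalings of the libraries: by the size factors in the deposited values (circles), by all reads (squares) and by the reads without the 5 most abundant features (triangles). miR-221-3p moves through 0.59, 0.51 and 0.12 and miR-221-5p through -0.15, -0.23 and -0.62. Their distance is the same each time by construction, since both strands of a library are divided by the same factor.

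Replicates of the members varied by more than counting error. At HH22 the coefficient of variation was 9.36% for miR-221-5p, 5.33% for miR-221-3p, 17.2% for miR-222a and 8.39% for miR-222b-5p. At HH18 it was 14.4% for miR-221-5p, 15.5% for miR-221-3p, 19.7% for miR-222a and 34.3% for miR-222b-5p. Counting alone gives at most 0.894% for miR-221-5p, 1.94% for miR-221-3p, 2.01% for miR-222a and 7.05% for miR-222b-5p, each in HH18 replicate 6, the shallowest library. No other feature of the table had reads identical to those of any member in all 8 libraries. Estimated counts of near-identical sequences can still share reads. No miRNA sequences were at hand, so whether this touches the split between miR-222a and miR-222b was not checked.

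How the members varied together differed between pairs. Over the 8 libraries, miR-221-5p and miR-221-3p had a Pearson correlation of -0.40 on the log2 scale, and 0.03 after stage means were taken out. miR-222a stood at 0.39 with miR-221-5p and at 0.22 with miR-221-3p, and at 0.57 and 0.03 after stage means were taken out. miR-222b-5p stood at 0.82 with miR-221-3p and at -0.58 with miR-221-5p, and at 0.68 and -0.41 without the stage means. These are descriptions over 8 libraries that share 2 stages and differ in depth.

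Features most like miR-221-5p, the most abundant member, were sought among the 315 other tested features with a mean of at least 10. The 5 with the highest correlation over the 8 libraries were miR-99a-5p (r = 0.87), miR-1779 (0.84), miR-1720-5p (0.84), miR-183 (0.75) and miR-29a-3p (0.73). On deviations from the stage means they were miR-99a-5p (0.94), miR-10a-5p (0.87), miR-30a-3p (0.84), miR-187-5p (0.84) and miR-1779 (0.83). miR-99a-5p, among the most abundant miRNAs of these libraries, came first both times. miR-221-3p had other nearest features, chosen for mention after their values were seen: miR-181a-5p (0.99), miR-30a-5p (0.98), miR-30d (0.98) and miR-219a (0.98) over the 8 libraries, of which miR-219a (0.98), miR-181a-5p (0.95) and miR-30a-5p (0.93) were also among the nearest 5 without the stage means.

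Because miR-221 and miR-222 are known from blood vessels and blood, miRNAs of those cells were measured beside them. The list held 9 features, all with reads: both strands of miR-126 (endothelium), both of miR-144 and miR-451 (red blood cells), and both of miR-142, miR-223 and miR-155 (leukocytes). Their summed level was 305.6, 316.4, 343.3 and 2089 normalized counts in HH22 replicates 1 to 4, and 14371, 2041, 232.6 and 364.1 in HH18 replicates 5 to 8. HH18 replicate 5 was by far the highest, and the stages overlapped. Of 8 tested features 0 passed in either direction by limma, with a median log2 difference of -0.76 against 0.38 over all tested features. The smallest limma adjusted p among them was 0.419, for miR-142-3p, and 0 had an unadjusted p under 0.05. With voom weights 0 passed, and 0 had an unadjusted p under 0.05. The log2 differences ran from -3.04 (miR-142-3p, SE 2.15) to 1.19 (miR-144-5p, SE 1.39), and the standard errors from 0.79 to 2.59. With errors of this size the calls cannot show that the stages were alike in these miRNAs.

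The defining markers were present at low level in most libraries. miR-126-3p ran from 39.3 to 495.8 normalized counts at HH22 and from 50.3 to 1845 at HH18. miR-451 ran from 41.4 to 542.2 at HH22 and from 25.5 to 3694 at HH18. miR-144-3p was at 0 in 2 libraries, miR-144-5p in 3, miR-223 in 1 and miR-155 in 7. HH18 replicate 5, the library with the highest sum, had the highest miR-222a of its stage and the lowest 3p share of miR-221 of all 8. HH22 replicate 4, with the highest sum of its stage, had the lowest 3p share (22.8%) and the lowest miR-221-3p (17375) of its stage. HH18 replicate 7, with the lowest sum of all 8, had the highest 3p share (21.0%) and the highest miR-221-3p (15208) of its stage. HH22 replicate 1, with the highest miR-222a of its stage, had the lowest sum of its stage. Its 3p share (24.5%) lay below those of HH22 replicates 2 (27.4%) and 3 (27.3%). HH18 replicate 8, with a sum of 364.1, had a lower 3p share (15.2%) than HH18 replicate 6 (17.5%), with a sum of 2041. A link between the sum and the 3p share was not tested. Without HH18 replicate 5 and HH22 replicate 4, the libraries with the highest sum in each stage, the log2 difference was 0.57 (SE 0.14) for miR-221-3p, -0.16 (SE 0.15) for miR-221-5p and 0.24 (SE 0.17) for miR-222a. The 3p share then differed by 8.53 percentage points. This setting was chosen after the data were seen.

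The labelled tissue was checked against 8 surface-epithelium features, among them miR-205a, miR-203a and the miR-200 family, all of which had reads in all 8 libraries. They summed to 453494 to 612253 normalized counts at HH22 and 263830 to 375392 at HH18. Of the 8, miR-203a and miR-205a passed as higher at HH22 and miR-200b-5p as lower by limma. The median log2 difference of the 8 was 0.37. It was 0.38 over all tested features and 0.13 over those with a mean of at least 1000. The 6 mesenchyme features, among them miR-199, miR-214 and miR-140, summed to 40465 to 44706 at HH22 and 25750 to 29651 at HH18, most of it miR-140-3p. Of 5 tested, 3 passed as higher and 0 as lower (miR-140-3p and both strands of miR-199), with a median of 0.57. With the size factors of the deposited values, both sums were higher in every HH22 library than in any HH18 library, as was miR-221-3p. Single features of the lists did not all separate. The stages overlapped for miR-200a-3p, miR-200b-3p, miR-429-3p, miR-199-3p and miR-214, and miR-140-5p had a log2 difference of -0.14 (SE 0.96). The sums were not taken under the other scalings. Their part in the difference of miR-221-3p was not tested.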

How the data were processed

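Small RNA libraries (TruSeq small RNA kit, RNA from a miRNeasy kit, per the labels' protocols) were made from frontonasal ectoderm. Tools named in the submitters' processing notes are kallisto 0.44.0, cutadapt 1.8.1 and bcl2fastq. The reference, build and normalization were not given in the sources used here. The deposited log2 values share a lowest value of 8.52 in all 8 libraries. The closed-form variance-stabilizing transformation was inverted from it, and 100% of the values above 0 came out as whole multiples of 1 step per library (tolerance 0.001). The multiples are called reads, although kallisto estimates counts, and reads times the step are called normalized counts. Median-of-ratios size factors, taken over features present in every library, were the reciprocals of these steps.

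Features that reached a normalized count of 1 in 4 or more libraries were fitted with limma-trend on log2(normalized count + 1), HH22 minus HH18, two-sided, threshold 0.05 on Benjamini-Hochberg adjusted p. The fit was also run on simulated counts, and no outcome of that run is used here. Features named are all miR-221 and miR-222 rows, their neighbours in level, the 5 features most correlated with the most abundant member (over 8 libraries, and on deviations from stage means) and the blood and endothelium list; other names were added after values were seen. A planned part of this rule, features sharing a seed with a member, was not used, since no miRNA sequences were at hand. The members and lists were chosen with earlier results of these data known. Nothing says how embryos were assigned to pools beyond 2 chicks per sample, so standard errors describe pools. Versions were limma 3.58.1 in R 4.3.3, and matplotlib 3.10.9, scipy 1.17.1, pandas 2.3.3 and numpy 2.4.6 in Python 3.11.15. Alternatives covered the pseudocount, filter, scaling, scale, depth, weights and libraries left out.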

Additional observations from a re-analysis of the deposited data

Results flagged for a closer look

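Groups of 4 libraries were checked for 1 library far from the other 3, over 26 groups, and chance alone gives about 1 in 20. miR-222b-3p had 12.6 normalized counts in HH22 replicate 2 and 0 in the other 3 HH22 libraries. Against 3 values of 0 a count stands apart whatever its size, so the chance rate does not describe this group. The ratio of miR-222a to miR-222b-5p was 15.5 in HH22 replicate 1, against 9.63 to 9.93 in the other HH22 libraries. The summed blood and endothelium miRNAs stood apart in both stages, at 2089 in HH22 replicate 4 against 305.6 to 343.3 in the other HH22 libraries, and at 14371 in HH18 replicate 5 against 232.6 to 2041 in the other HH18 libraries. The part of these libraries in the members' values was not tested beyond leaving them out.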

How the results depend on the processing

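No paired analysis was possible because the sample numbers 1 to 8 are all different. Of all tested features 52 passed the threshold, against 24 with no filter, 33 without HH18 replicate 5 and HH22 replicate 4 together (a setting added after seeing the data), and 29 to 65 with 1 library left out. Scaling without the 5 most abundant features moved the log2 differences to -0.62 for miR-221-5p, 0.12 for miR-221-3p, -0.36 for miR-222a and 0.05 for miR-222b-5p, and 71 features then passed, 24 higher and 47 lower, against 35 higher and 17 lower with the size factors. Without HH18 replicates 5 and 6, the shallowest, miR-221-3p had 0.42 and still passed. It kept its direction in all 19 alternatives and passed in 17, which all kept the size factors of the deposited values. Under neither change of scaling, by library size or without the 5 features, did it pass. The alternatives are refits of the same 8 libraries, so counts of them are not independent evidence. The members were also chosen with the stage contrast known, so nothing is read from whether a member passed. miR-221-5p was negative in all 19 and passed in 1. miR-222a was negative without the 5 features and without HH22 replicate 1 (-0.01), and positive in the other 17. miR-222b-5p was positive in all 19 and passed in 1, without HH18 replicate 7. With 1 library left out, differences ran from 0.53 to 0.68 (miR-221-3p), -0.23 to -0.07 (miR-221-5p), -0.01 to 0.23 (miR-222a), 0.39 to 0.73 (miR-222b-5p) and 7.63 to 9.73 percentage points (3p share). Every HH22 library was deeper than every HH18 library, so depth limits the comparison.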
